A study of Mus musculus with 3 samples.

Results

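In the HDAC3 peak list of wild-type (WT) mouse liver, 248 groups of 3 or more neighbouring peaks held no peak that was also listed in NS-DADm liver. Neighbouring WT peaks were joined into a chain when the gap between their edges was 10 kb or less, and a chain was kept when none of its peaks shared 1 bp with an NS-DADm peak. These WT-only chains held 849 of the 5799 WT peaks, and they were 70.9% of the 350 WT chains of 3 or more peaks. The remaining 102 chains, 29.1%, held 370 WT peaks, of which at least 1 per chain overlapped an NS-DADm peak. Of all 5799 WT peaks, 93.3% had no overlap with any of the 600 NS-DADm peaks, and of isolated WT peaks 94.3%. The members were chosen by peak positions in both lists, so neither the missing overlap nor these shares are tested here.

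HDAC3 is a histone deacetylase that removes acetyl groups from histone tails, and it is the enzyme of the corepressor complexes built on NCoR and SMRT. Nuclear receptors and other DNA-bound factors bring these complexes to enhancers and promoters, and in liver HDAC3 is known for its part in lipid metabolism and in daily rhythms of transcription. Enhancers often lie in groups near a gene, and corepressors can be recruited at several of them at once. NS-DADm names a mouse line that, as background knowledge not stated in the sources used here, carries mutations in the deacetylase-activating domain of both corepressors, the part that binds HDAC3 and switches on its enzyme activity.

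The series holds 3 liver samples of male C57Bl/6 mice aged 10 to 12 weeks, on normal chow and collected at zeitgeber time 10, which counts hours from lights on. HDAC3 was immunoprecipitated (ChIP) from WT and from NS-DADm liver, and an input without antibody was not analysed here. The labels give 4 to 5 mice pooled per condition. The WT sample joins 2 samples, so its number of mice can be larger than that of NS-DADm: WT liver, and liver with floxed Hdac3 that had received an adeno-associated virus for GFP and served as the control of a knockout. The NS-DADm sample has no such virus-treated part in its labels, so virus and floxed allele cannot be told apart from genotype. Each genotype has 1 library, so the values below carry no replicate error, and the spread between mice is unknown.

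The authors gave each peak a value, read here as RPM (reads scaled to library size), although the lists name no unit. They are rounded to 0.1 RPM, which leaves an error of up to 0.05 RPM on each value. On a sum of 3 peaks the error is up to 0.15 RPM, and sums of more peaks carry more. The number of reads behind them is unknown. Every peak is 200 bp wide. WT values start at 1.0 RPM and those of the 600 NS-DADm peaks at 1.1 RPM, so a WT peak without an overlap can still have carried HDAC3 under that limit. Positions are on mouse build mm8, counted from 1. Their place relative to genes was not analysed here.

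The WT-only chains were mostly short series of low peaks. Of the 248 chains, 177 held 3 peaks (71.4%), 48 held 4 and 18 held 5, and 5 chains held 6 to 9. Their span from the first to the last peak had a median of 8.92 kb (interquartile range 4.79 to 12.4 kb, lowest 0.681 kb, highest 32.3 kb). The peaks themselves covered a median of 7.97% of that span. The summed value per chain had a median of 5.25 RPM (4.3 to 6.7 RPM, highest 14.5 RPM) and the highest peak a median of 2.1 RPM (1.6 to 2.7 RPM, highest 4.7 RPM). Single peaks of these chains had a median of 1.5 RPM, beside 1.4 RPM over all WT peaks and 1.3 RPM over the 2817 isolated WT peaks without an overlap. At 2 RPM or more there were 219 of the 849 peaks (25.8%), and at 3 RPM or more there were 52. In 28 chains no peak reached 1.5 RPM, and in 6 chains every peak had 2 RPM or more.

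The chain with the most peaks, the highest sum and the longest span was on chromosome 7, chr7:18827484-18859756. Its 9 peaks had 1.1, 1.2, 1.1, 1.4, 1.8, 2.1, 1.2, 1.8 and 2.8 RPM in order along the chromosome, 14.5 RPM in all over 32.3 kb. The highest peak closed the chain at its right end, and the nearest NS-DADm peak was 3050 kb away. On chromosome 9, chr9:102573030-102594594 held 8 peaks of 1.1, 1.5, 1.7, 1.8, 1.5, 2.7, 2.2 and 1.4 RPM, with a sum of 13.9 RPM over 21.6 kb. Here the last 2 peaks were only 0.048 kb apart, and the 7.89 kb before them was the widest gap of the chain. In both chains the sum was spread over many sites: the highest peak made up 19.3% and 19.4% of it, the lowest such shares of all WT-only chains.

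The rest of the 5 highest sums came from chromosomes 14 and 15. The chain at chr14:33177448-33189752 had 6 peaks of 1.6, 2.9, 3.8, 2.4, 1.8 and 1.2 RPM, 13.7 RPM over 12.3 kb, with values that climbed to the third peak and then fell along the chromosome. At chr15:85544884-85570689 there were 7 peaks of 1.5, 1.9, 1.6, 1.8, 2.2, 3.0 and 1.4 RPM, 13.4 RPM over 25.8 kb, a span exceeded in 2 other chains. Its last gap, 9.94 kb, was the widest joined gap in any WT-only chain and lay just inside the limit. An NS-DADm peak lay 11.3 kb from this chain. The chain at chr14:24314498-24327212 had 5 peaks of 3.0, 2.2, 1.5, 1.9 and 3.5 RPM, 12.1 RPM over 12.7 kb, with its highest peaks at both ends. The chain at chr17:55840214-55853855 had the same sum and came after it because ties were settled by position.

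**Figure D1:**
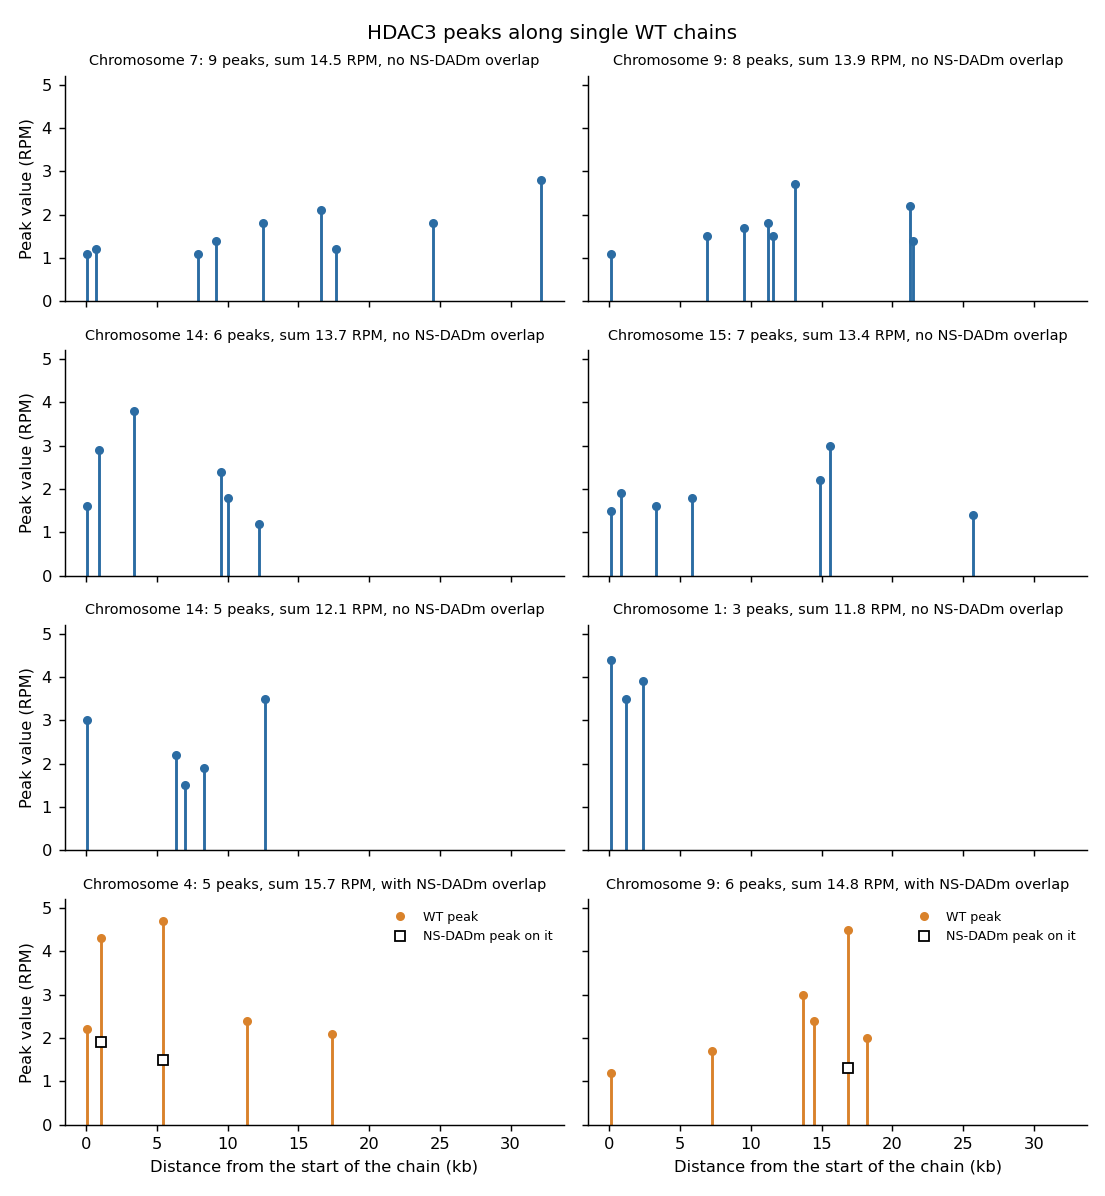
WT peak values in RPM (vertical lines with circles) against the distance in kb from the start of the chain, for the 5 WT-only chains with the highest sums, a compact WT-only chain of 3 peaks on chromosome 1 (blue) and the 2 chains with an NS-DADm overlap and the highest sums (orange), where squares give the NS-DADm value. The blue chains reach sums of 11.8 to 14.5 RPM with 3 to 9 peaks, and in the orange chains the overlapped peaks have 1.3 to 1.9 RPM in NS-DADm.

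The 5 chains with the highest single peaks had 3 peaks each and spans of 2.46 to 13.4 kb. The highest was at chr5:127921961-127931016, with 1.3, 2.9 and 4.7 RPM over 9.06 kb. On chromosome 2, chr2:103647819-103652309 had 3.2, 4.5 and 2.0 RPM over 4.49 kb, and chr2:153275905-153289265 had 1.3, 1.3 and 4.5 RPM over 13.4 kb. The first of these was high at every site, and in the second the 4.5 RPM peak made up 63.4% of the sum, the largest such share of all WT-only chains. At chr1:158494380-158496840 the 3 peaks had 4.4, 3.5 and 3.9 RPM within 2.46 kb. No other WT-only chain had a minimum as high as its 3.5 RPM, and its sum of 11.8 RPM was reached with 3 peaks where the chromosome 7 chain needed 9 for 14.5 RPM. Its distance to the nearest NS-DADm peak was 3385 kb. The fifth, chr12:110602105-110604564, had 1.7, 2.3 and 4.2 RPM within 2.46 kb.

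Other chains were named for their peak number, length or density. The fifth by peak number, chr1:194973693-194991001, had 6 peaks of 1.2, 1.4, 3.0, 1.7, 1.3 and 1.6 RPM over 17.3 kb. The second longest, chr10:127141197-127167073, spread 5 peaks of 1.4, 1.3, 1.7, 2.6 and 1.1 RPM over 25.9 kb. The 3 densest chains were under 1 kb long and had no peak over 1.7 RPM. At chr4:144547467-144548147, peaks of 1.3, 1.4 and 1.3 RPM filled 88.1% of a span of 0.681 kb, and 2 of them shared bases. The next, chr13:43242933-43243745, had 1.4, 1.7 and 1.7 RPM in 0.813 kb, and chr18:75007693-75008577 had 1.1, 1.2 and 1.2 RPM in 0.885 kb. The only other WT-only chain under 1 kb, chr11:106791532-106792506, was higher, with 1.6, 3.6 and 1.3 RPM in 0.975 kb. Whether such closely set peaks are separate sites was not tested.

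Gaps inside the WT-only chains ran from touching peaks to the 10 kb limit. Over the 601 gaps between neighbouring peaks the median was 2.80 kb (interquartile range 0.792 to 5.81 kb). Of these gaps, 115 were 500 bp or less (19.1%), among them 9 between peaks that touched or shared bases, and 192 were over 5 kb (31.9%). When peaks within 500 bp were merged, 183 of the 248 chains still had 3 or more sites, and 9 became a single site. There were 20 chains with a span of 2 kb or less (8.06%) and 31 with a span over 15 kb (12.5%). Within a chain the second highest peak had a median of 0.791 times the highest value, and in 81 chains it was within 0.2 RPM of it. Of the 161 chains of 3 peaks with a single highest peak, 67 had it in the middle (41.6%). Across the 248 chains, which share 1 library, the median gap and the highest value had a Spearman rho of -0.09, and span and sum had a rho of 0.25. Span and sum both add up over the peaks of a chain, so the latter rho is fixed in part by peak number. In the 102 chains with an overlap, 15.7% of gaps were 500 bp or less and 29.5% were over 5 kb. Of those chains, 8.82% spanned 2 kb or less and 15.7% over 15 kb, and 81 kept 3 or more sites after merging. Shares of gaps and of spans at these limits were thus close to those in WT-only chains. In 20 of the 102 chains the second highest peak was within 0.2 RPM of the highest, beside 81 of the 248. Of 56 chains of 3 peaks with a single highest peak, 20 had it in the middle (35.7%). Across the 102 chains, rho was 0.002 for median gap and highest value and 0.39 for span and sum. Whether these traits differ between the kinds of chain was not tested.

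WT-only chains had lower values than the chains with an overlap, which is given as a description because the overlap chose the members. The highest peak had a median of 2.1 RPM in WT-only chains and 2.6 RPM in chains with an overlap, and the sum a median of 5.25 and 6.5 RPM. The share of chains without an overlap was 93.3% (28 of 30) where the highest peak had 1.1 to 1.4 RPM and 88.0% (81 of 92) at 1.5 to 1.9 RPM. It was 63.1% (53 of 84), 63.9% (39 of 61) and 64.1% (41 of 64) at 2.0 to 2.4, 2.5 to 2.9 and 3.0 to 3.9 RPM. The share was thus nearly level from 2.0 to 3.9 RPM. At 4.0 RPM or more it was 31.6% (6 of 19). By peak number the share was 75.3% for 3 peaks (177 of 235), 61.5% for 4 (48 of 78) and 62.2% for 5 or more (23 of 37). It was 87.9% among the 796 pairs of WT peaks, just outside the limit of 3, and 94.3% among the 2988 isolated peaks. A chain with more peaks has more chances of an overlap, but whether this accounts for the lower shares was not tested. Over all WT peaks 93.3% had none.

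**Figure D2:**
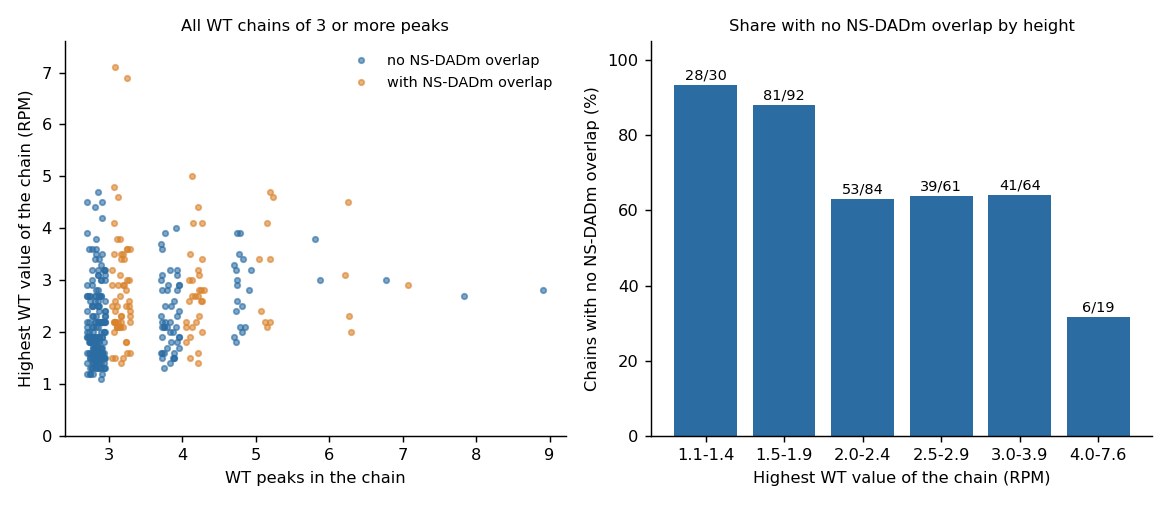
Left, the highest WT value in RPM of each chain of 3 or more peaks against its number of peaks, for 248 chains without (blue) and 102 with (orange) an NS-DADm overlap, with points spread sideways for visibility. Right, the percentage of chains without an overlap by highest WT value in RPM, with the counts above the bars; it is 93.3% in the lowest class, between 63.1% and 64.1% from 2.0 to 3.9 RPM and 31.6% in the highest.

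In the 102 chains with an overlap, NS-DADm peaks sat on few of the WT peaks. Of these chains, 86 had 1 overlapped peak, 16 had 2 and none had 3 or more, so that 118 of their 370 peaks were overlapped (31.9%, beside 6.73% over all WT peaks, and fixed in part by the choice of chains). The highest WT peak was among the overlapped ones in 67 chains (65.7%). The highest NS-DADm value per chain had a median of 1.3 RPM and ran from 1.1 to 2.9 RPM. It was 1.1 or 1.2 RPM in 42 chains (41.2%), at or 1 rounding step above the lowest value of the NS-DADm list. The chain with the highest sum, chr4:132824198-132841692, had 2.2, 4.3, 4.7, 2.4 and 2.1 RPM in WT and 1.9 and 1.5 RPM in NS-DADm on the WT peaks of 4.3 and 4.7 RPM. At chr9:65088065-65106334, 6 WT peaks reached 4.5 RPM and only that highest one was overlapped, by a peak of 1.3 RPM. The third, chr1:182046639-182066930, had 7 WT peaks of 1.5 to 2.9 RPM and NS-DADm peaks of 1.1 and 1.2 RPM. Its WT sum of 13.4 RPM equalled, from rounded values, that of the WT-only chain of 7 peaks on chromosome 15.

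To set chains of like height and size side by side, each chain with an overlap was compared with the WT-only chains that had the same number of peaks and a highest value within 0.2 RPM. Such chains existed for 93 of the 102, with a median of 14 WT-only chains each (1 to 58), and 242 of the 248 WT-only chains were used. Each single chain with an overlap was set against the median of its WT-only chains. The same WT-only chain could serve several chains with an overlap, so the 93 comparisons are not independent. The 9 unmatched chains had highest values of 2 to 7.1 RPM. They included the chains at chr2:25294710-25307181 (7.1 RPM) and chr13:46030604-46032197 (6.9 RPM), both above any WT-only chain. Of the matched chains, 41 had a highest NS-DADm value of 1.1 or 1.2 RPM (44.1%).

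After matching, WT-only chains had nearly the same sum and a slightly shorter span, with differences much smaller than the spread between chains. The likeness in sum is fixed in part by the matching, since it holds the peak count and the highest value alike. The matched sums had a median of 6.4 RPM on both sides. The median difference, WT-only minus overlap, was -0.1 RPM (interquartile range -0.5 to 0.2 RPM), within the rounding error of a sum of 3 peaks. The span had a median of 9.54 kb in the chains with an overlap and 7.61 kb in their WT-only counterparts, with a median difference of -1.07 kb (-3.50 to 2.43 kb), and the WT-only value was lower for 55 of 93 chains and higher for 37. The median gap between peaks had medians of 3.56 and 2.86 kb and a median difference of -0.54 kb (-1.76 to 1.22 kb), lower for 57 and higher for 36. In chains of 3 peaks, which were 56 of the 93, the span follows almost wholly from the median gap. Span and gap are thus not separate results there. Neither difference held its direction under every setting. With peaks within 500 bp merged the span difference was 0.818 kb, with a 20 kb limit for joining peaks it was 2.49 kb, and with the highest value required to be equal it was 0.391 kb. The direction of the differences in span and spacing thus depended on the setting. By peak number the median span difference was -0.47 kb for 3 peaks (56 chains), -1.59 kb for 4 (28 chains) and -2.97 kb for 5 or more (9 chains). A span adds up all gaps of its chain. The median gap differed by -0.23, -0.97 and -0.43 kb in the same classes. The highest peak's share of the sum differed by a median of 0.665 percentage points, higher in WT-only chains for 54 of 93. Since the highest value was held alike, this share largely restates the difference in sum.

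**Figure D3:**
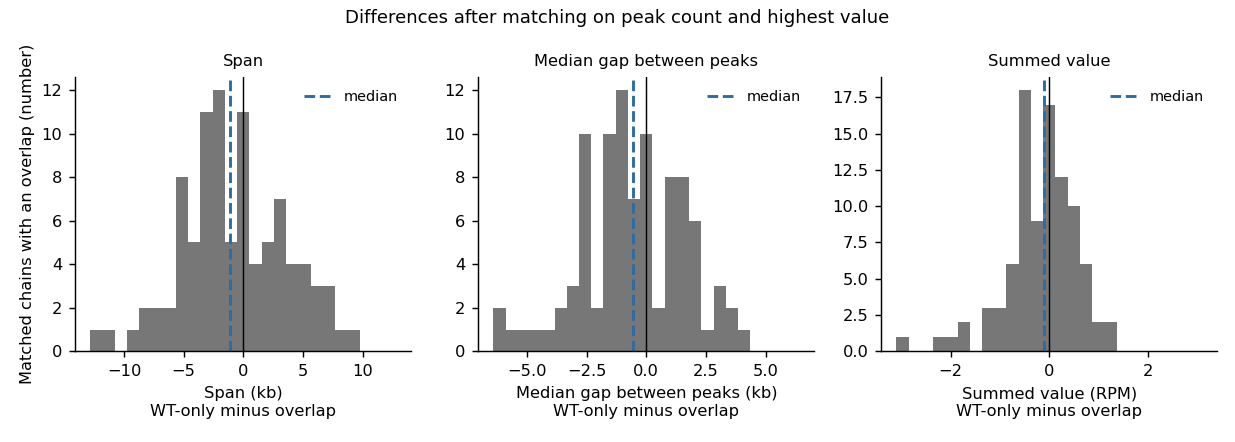
Number of matched chains with an overlap by the difference, WT-only minus overlap, in span (kb), median gap between peaks (kb) and summed value (RPM); the solid line marks 0 and the dashed line the median. The medians are -1.07 kb, -0.54 kb and -0.1 RPM, and each distribution spreads widely to both sides of 0.

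**Figure D4:**
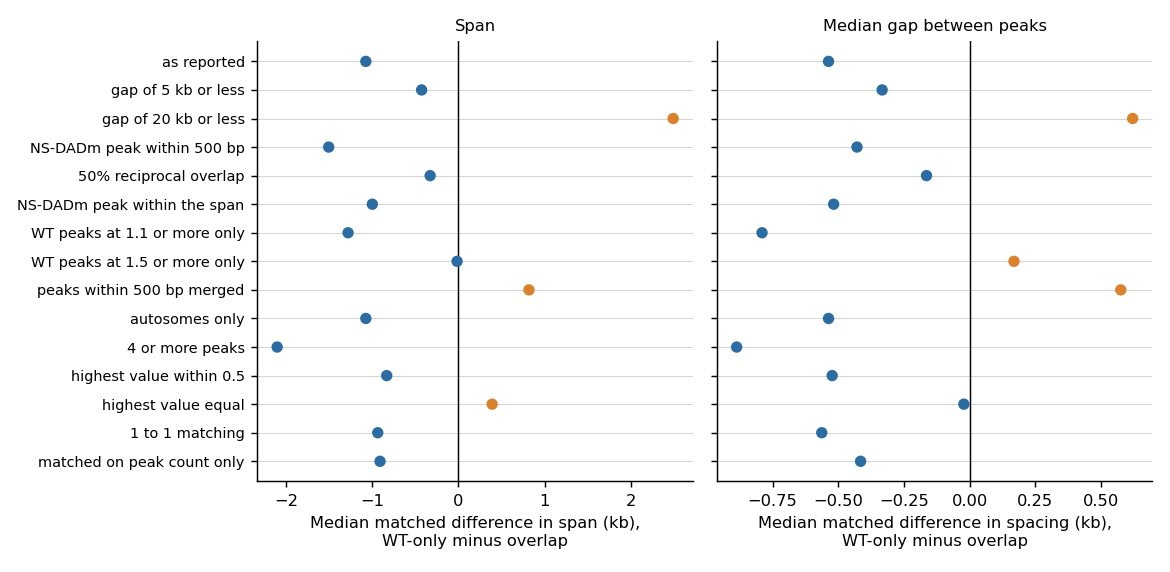
Median matched difference in kb, WT-only minus overlap, in span (left) and median gap (right) as reported and under each of 14 other settings; blue points lie below 0 and orange points above. For each quantity 11 settings lie below 0 and 3 above, and among those below 0 the autosomes-only setting repeats the reported value by construction. In chains of 3 peaks the span follows almost wholly from the median gap, so the panels are not separate results.

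An NS-DADm peak lay between the peaks of a WT-only chain in 5 of the 248 chains, 1 in each. The same was seen in 4 of the 102 chains with an overlap. Whether these counts differ from an even spread of the 600 NS-DADm peaks was not tested. At chr17:31658959-31669764, with WT peaks of 3.9, 2.8, 1.9 and 2.0 RPM, an NS-DADm peak of 1.4 RPM lay 56 bp from the 3.9 RPM peak. This was the smallest distance of any WT-only chain to an NS-DADm peak and lies just outside the overlap rule. At chr8:97243831-97253356, with 1.7, 1.9 and 3.0 RPM, an NS-DADm peak of 1.2 RPM lay 303 bp from the highest WT peak. At chr9:121750990-121754540, with 1.4, 2.2 and 1.4 RPM, one of 1.2 RPM lay 321 bp from the 2.2 RPM peak. In these 3 chains the NS-DADm peak was thus beside the highest WT peak. At chr11:4008762-4022464, with 2.1, 1.4, 2.8, 1.9 and 1.2 RPM, an NS-DADm peak of 1.3 RPM lay 709 bp from the 2.8 RPM peak, again the highest. The fifth case ran the other way in height: at chr11:35805948-35818335 the WT peaks had 1.2, 1.0 and 1.3 RPM, and an NS-DADm peak of 2.1 RPM, higher than each of them, lay 790 bp from the 1.2 RPM peak.

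Close to the rule's edge lay also chr11:98589107-98602906, with 2.1, 1.5, 1.7 and 1.2 RPM, where an NS-DADm peak outside the chain was 95 bp from the 1.2 RPM peak. Just inside the overlap rule, the chain at chr4:131338158-131350745 (2.2, 1.3 and 1.5 RPM) shared 23 bp with an NS-DADm peak of 1.1 RPM. The chain at chr5:125575207-125586463 (3.8, 1.1 and 1.6 RPM) shared 28 bp with one of 1.2 RPM, and chr15:81662859-81673145 (2.0, 2.2 and 2.0 RPM) shared 39 bp with one of 1.1 RPM. Moving the rule changed few members, since 244 chains had no NS-DADm peak within 500 bp of a peak and 262 had none with a 50% reciprocal overlap.

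Like other WT sites without an overlap, most WT-only chains were far from any of the 600 NS-DADm peaks, though somewhat nearer by median. The distance to the nearest one had a median of 586 kb (interquartile range 128 to 2396 kb), and 26 chains had none within 5 Mb on their chromosome. It was 1 kb or less for 6 chains, 10 kb or less for 8 (3.23%) and 100 kb or less for 54 (21.8%). For the 700 pairs of WT peaks without an overlap the median was 775 kb, with 17.4% within 100 kb, and for the isolated peaks without an overlap it was 825 kb, with 16.0%. A chain is wider than a single peak, and the larger number of peaks gives it more chances of a near neighbour, so these values are given side by side without a test.

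**Figure D5:**
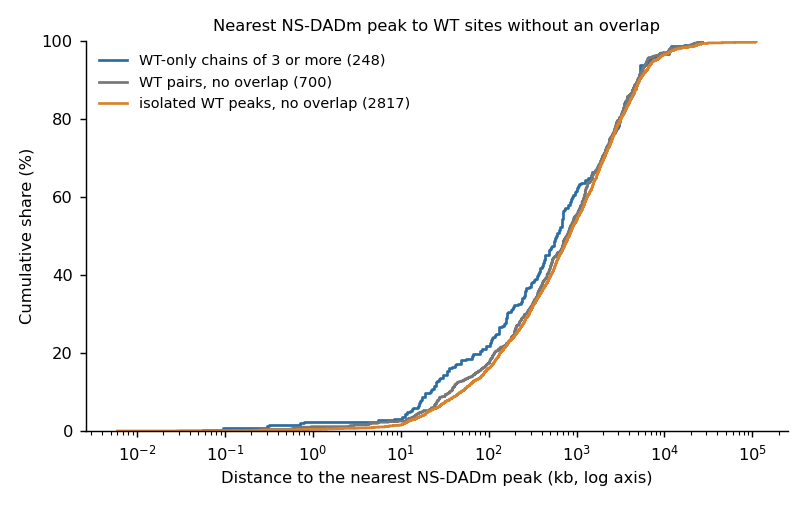
Cumulative percentage of WT sites without an overlap by the distance in kb (log axis) to the nearest NS-DADm peak, for 248 WT-only chains of 3 or more peaks (blue), 700 pairs (grey) and 2817 isolated peaks (orange). Within 100 kb lie 21.8%, 17.4% and 16.0% of them.

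Some WT-only chains lay close to each other. Another WT-only chain was within 100 kb of 37 of the 248 chains (14.9%), and a chain with an overlap was within 100 kb of 15 (6.05%), the latter kind numbering only 102. Whether these counts depart from what the numbers of each kind would give was not tested. At a distance of 50 kb or less, a limit chosen after seeing the data, 22 chains formed 10 runs, 9 of 2 chains and 1 of 4. In the run at chr5:66323138-66393574 a chain with an overlap, chr5:66353008-66363974, lay between the 2 WT-only chains. The run of 4 was at chr14:24284411-24360693, a stretch of 76.3 kb with 14 member peaks that summed to 25.8 RPM. It held 1 other WT peak and no NS-DADm peak. Its second chain is the 5-peak chain of 12.1 RPM described above, and the other 3 had sums of 4.1, 4.7 and 4.9 RPM and no peak over 1.9 RPM. The run at chr15:85544884-85604931 joined the 7-peak chain to one of 3 peaks, 18.1 RPM in all, also with no NS-DADm peak inside. Of the 10 runs, 4 had an NS-DADm peak inside their limits. The nearest WT peak outside a chain was a median of 27.8 kb away, and the closest was 10.1 kb away, just beyond the joining limit. For 19 chains it lay at 11 kb or less, so that a slightly wider limit would have lengthened them, and 63 chains had no other WT peak within 100 kb.

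WT-only chains were found on every autosome. Chromosome X had 16 WT peaks and no chain of 3 or more of either kind. Chromosome 5 had the most with 23, followed by chromosome 8 with 21, and chromosome 16 had the fewest with 5. Member peaks made up 19.8% of the WT peaks of chromosome 8, 19.7% of those of chromosome 5 and 19.5% of those of chromosome 9, against 8.04% on chromosome 16 and 9.52% on chromosome 4. The share of chains without an overlap ran from 50% on chromosome 4 (12 of 24) and 53.3% on chromosome 15 (8 of 15) to 84.6% on chromosome 12 (11 of 13) and 88.2% on chromosome 10 (15 of 17). With 9 to 31 chains on each chromosome and 1 library per genotype, these shares are a description only.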

How the data were processed

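Chromatin immunoprecipitation with sequencing (ChIP-seq) of HDAC3 in mouse liver gave 1 deposited peak list per genotype. Per the labels' protocols, tissue was cross-linked with 1% formaldehyde and DNA of 4 to 5 mice was pooled per condition. The submitters' processing notes name HOMER, with no version, and mm8. How reads were aligned, which peak-calling options were set and whether the input was used is not given in the sources used here. The deposited values were taken as RPM because the authors' lists are named for a limit of 1 RPM, and the 2 lists can differ in depth and yield in ways this scaling does not remove.

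Peaks were chained (gap of 10 kb or less), overlaps called at 1 bp, and chains matched on peak count (7 or more as 1 class) and highest value (within 0.2 RPM). Spacing is the median edge-to-edge gap of a chain. Python 3.11.15, numpy 2.4.6, scipy 1.17.1 and pandas 2.3.3 were used, and chaining was tested on simulated data. No test over chains was made, since chains of 1 library are not replicates. The members and lists were chosen with earlier results of these data known. The chains named are the 5 with the highest sum, most peaks and highest single peak, the 3 densest and 3 longest, the 3 nearest to an NS-DADm peak, and 3 each of the chains with an overlap by highest sum and fewest shared bases. Chains named for an NS-DADm peak inside them, for lying in runs or for being unmatched, the tied chain on chromosome 17 and the fourth chain under 1 kb were chosen after their values were seen. The gene table at hand is of another build, so gene lists and motifs planned for an mm8 reference were not used here.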

Additional observations from a re-analysis of the deposited data

How the results depend on the processing

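Of 102 alternative values for 9 results, 74 stayed close to the reported one, 22 moved and 6 reversed a matched difference. The values with autosomes only, counted among the close ones, equal the reported ones by construction, since chromosomes X and Y held no chain. A count was close within 1.5 times, and a median within the 95% binomial interval of its ranks over chains, which treats chains as independent. A joining limit of 5 kb gave 139 WT-only chains with 446 peaks, a median span of 4.17 kb and spacing of 1.61 kb. A limit of 20 kb gave 375 chains with 1392 peaks, a span of 17.5 kb, spacing of 5.85 kb and a sum of 5.6 RPM, and matched differences of 2.49 kb in span and 0.62 kb in spacing. By construction, longer limits join more peaks. WT peaks at 1.5 RPM or more left, by construction, 74 chains with 251 peaks, a sum of 7.05 RPM and a highest peak of 2.8 RPM, and a matched difference in spacing of 0.169 kb. The matched difference in span was then -0.016 kb, which still counted as close to the reported -1.07 kb. Chains of 4 or more peaks numbered 71, with 318 peaks, a span of 12.3 kb, a sum of 7.6 RPM and a highest peak of 2.4 RPM. Merging peaks within 500 bp gave a span of 10.2 kb and spacing of 4.23 kb, with matched differences of 0.818 kb and 0.575 kb. With equal highest values the matched differences were 0.391 kb in span and -0.022 kb in spacing, and matching on peak count alone gave a difference in sum of -1.0 RPM, since height was then left free. The cause of the reversals was not tested. The difference in sum stayed below 0 in 13 of 14 alternatives and was 0 in 1. No paired analysis was possible because each genotype has 1 pooled library. Depth is unknown, so no counting error could be given.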
